A study of Mus musculus with 8 samples.

Results

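Microtubules are hollow polymers of alpha and beta tubulin dimers, and this account covers 10 mouse genes around them: Tppp and Tppp3 of the tubulin polymerization-promoting family, the beta tubulins Tubb2a, Tubb2b, Tubb5 and Tubb6, the alpha tubulins Tuba1a and Tuba4a, the microtubule-associated protein gene Mapt (tau) and the stathmin gene Stmn1. Their signals were read on arrays of oligodendrocyte precursor cultures kept at 31.5 °C or 37 °C. The genes were chosen by a measured value of this same comparison, since Tppp is among its largest falls, and the others were picked as its partners with results of these data known. The temperature differences of all 10 genes are therefore given as a description, without a test. They are 10 of the 18193 genes that have a probe set of their own on the array. Every probe set that carries a member's symbol was taken, which gave 21 probe sets among 45037 without controls. Of these, 19 carry a member's symbol alone, and 2 carry a pseudogene or predicted gene as well.

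ICR embryos of 15 days gave the cells, which were taken from both cerebral hemispheres, grown for 5 days in medium with 10% serum and then for 48 hr in basal medium without serum at 1 of the 2 temperatures. There were 4 arrays at each temperature, numbered 1 to 4 in the labels, and nothing in the labels marks a genotype, a sorted population or a further agent. The labels name 3 mice per group and do not say how these relate to the 4 arrays, so p-values measure only the spread between these samples, which may be technical. These were mixed primary cultures: the precursor genes Pdgfra (2469 ± 365 at 31.5 °C, 1798 ± 168 at 37 °C) and Olig1 (6727 ± 390 and 6752 ± 646) gave clear signals, but so did the neuronal gene Dcx (2227 ± 295 and 2292 ± 342) and the astrocyte gene Gfap (2245 ± 968 and 3518 ± 1480.3). Of the 10 precursor markers read further below, 2 rose and 2 fell. A signal is the deposited intensity after each array was scaled to a common trimmed mean. Means are given ± SD over 4 arrays. Log2 differences are 31.5 °C minus 37 °C ± the SE of a fit that does not pair the arrays by number. The number of arrays limits the precision.

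As an oligodendrocyte leaves the precursor state it sends out many processes and wraps axons, and microtubules are laid down along these processes. TPPP binds and bundles microtubules, is enriched in myelinating oligodendrocytes and can nucleate microtubules at Golgi outposts in their processes. Tau and other associated proteins stabilise the polymer, stathmins bind free tubulin dimers and favour disassembly, and the tubulin isotypes differ mainly in their short C-terminal tails, which carry most modifications.

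Within this family Tppp, Tppp3 and Mapt were lower at 31.5 °C and Tuba4a was higher. Stmn1 was lower too, by amounts that differed between its 2 probe sets (-0.61 and -0.22), with overlapping groups on each. The abundant tubulins Tuba1a, Tubb5, Tubb2a and Tubb2b lay from -0.10 to 0.10 (log2 difference, rounded) on the brightest probe sets of their own. A filter kept the 22519 probe sets whose mean signal was at or above the median of all probe sets, and 19 of the 21 member probe sets passed it. Among those 19, 2 were past an adjusted p of 0.05 (limma) on the higher side and 6 on the lower side, where 6.52% and 6.83% of all probe sets tested were. The 4 values at 31.5 °C all lay above those at 37 °C for 2 member probe sets and all below for 4, against 10.9% and 10.2% of all probe sets. As the contrast chose the members, nothing is read from these counts. The 19 probe sets had a median log2 difference of -0.15, beside -0.0050 over all probe sets tested. With the replicate number as a block in the fit, 3 were higher and 6 lower past the threshold, where 12.4% and 13.9% of all probe sets were; the added one was 1416431_at of Tubb6. The counts of the fit without the block depended on single arrays. Of its 8 calls, only that of Tppp, the gene that led to the choice, was kept without replicate 3 at 31.5 °C. The same held when no dim probe sets were filtered out. Without replicate 2 at either temperature 2 were kept, and 3 without replicate 1 or 4 at 37 °C. At 31.5 °C, 4 were kept without replicate 1 and 6 without replicate 4. All 8 were kept without replicate 3 at 37 °C. The fits without 1 array did not use the block, and how many calls a blocked fit would keep was not tested.

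**Figure D1:**
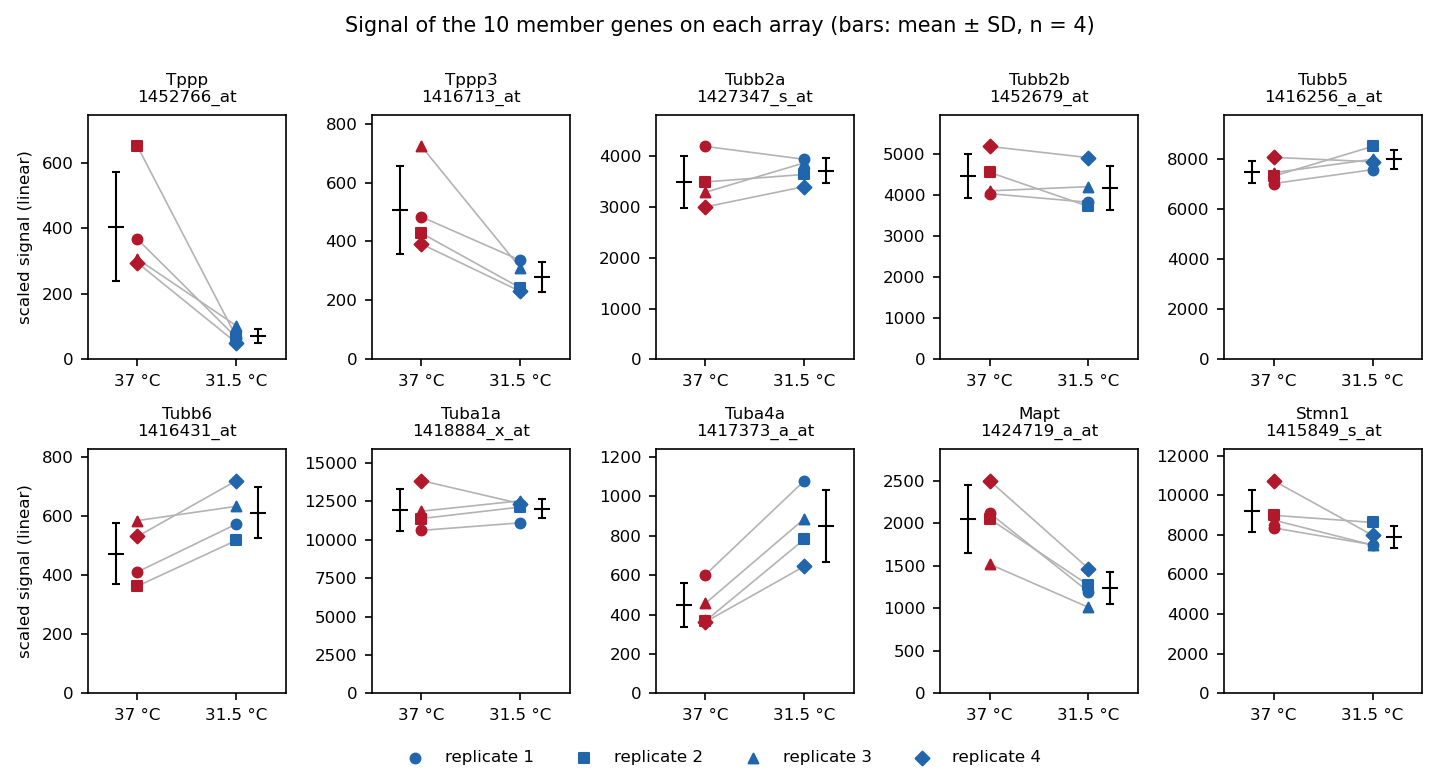
Scaled signal (linear, vertical axis) of each of the 10 genes on its brightest probe set of its own, at 37 °C (red) and 31.5 °C (blue), with grey lines joining arrays of the same replicate number and black bars for mean ± SD (n = 4). Tppp dropped on every line, from between 295 and 651 to between 49.8 and 102, Tuba4a was higher on every line, and Tuba1a stayed between 10610 and 13848.

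The sequence just before the transcription start is shown for Tppp and for the alpha tubulins Tuba4a and Tuba1a, to set the member with the largest difference downward, the one with the largest upward and an abundant one near 0 side by side. The RefSeq promoter table (GRCm38.p6) gave 5 of the 10 genes, with a chromosome left out in the choice of genes and only sequences of full length taken. Each line gives 120 bases, from 120 to 1 before the start, 5′ to 3′ on the gene's strand, and capitals mark 3 core motifs searched on both strands: TATAA (the TATA box), GGGCGG (the GC box bound by SP1) and CCAAT (the CCAAT box).

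Tppp (chr13:74009299-74009418, + strand): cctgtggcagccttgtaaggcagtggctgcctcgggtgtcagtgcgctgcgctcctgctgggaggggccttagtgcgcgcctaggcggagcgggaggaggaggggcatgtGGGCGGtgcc
Tuba4a (chr1:75219295-75219414, - strand): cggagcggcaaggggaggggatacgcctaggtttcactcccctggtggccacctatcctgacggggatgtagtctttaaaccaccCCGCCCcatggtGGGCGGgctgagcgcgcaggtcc
Tuba1a (chr15:98953502-98953621, - strand): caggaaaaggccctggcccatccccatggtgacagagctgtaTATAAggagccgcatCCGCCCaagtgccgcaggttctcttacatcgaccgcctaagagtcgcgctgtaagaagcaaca

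The GC box occurred once in the Tppp window, on both strands of the Tuba4a window and once, in reverse, in that of Tuba1a. It occurs in 26.5% of the 32851 windows of this length in the table. Of the 3 windows shown, the TATA motif was in that of Tuba1a only, 78 to 74 bases before the start, and it is in 11.8% of all windows. The Tubb2a window, which is not shown, held it too, from -29 to -25. The CCAAT box, in 21.3% of all windows, was in none of the 3. The GC content was 70.8% for Tppp, 65.8% for Tuba4a and 56.7% for Tuba1a, beside a median of 54.2%. These letters are a description, and the array data do not bear on which of them are used.

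Tppp has a single probe set, 1452766_at. Its signal at 31.5 °C was 65.9, 67.4, 102 and 49.8 in replicates 1 to 4. At 37 °C it was 367, 651, 306 and 295. The brightest array in the cold stayed far below the dimmest one at 37 °C, so the groups did not overlap. Means were 71.4 ± 22.1 and 405 ± 167, a level 5.56-fold lower at 31.5 °C (log2 difference -2.47 ± 0.29). Tppp ranked 5 among falls over the 11528 genes tested. The fall was present within each replicate number: -2.48, -3.27, -1.58 and -2.57 in numbers 1 to 4. Number 2 fell most because its 37 °C array was the brightest of the 4, and number 3 fell least, with the brightest array in the cold. None of the 8 signals was at the floor of 9.80, the level to which dim values were raised before logs were taken, and over the 16 alternatives the log2 difference lay between -2.66 and -2.22. In bulk cultures fewer cells of a type and less RNA per cell cannot be told apart, here and in every result that follows.

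Of 12 listed markers of myelinating oligodendrocytes 8 could be tested, and 6 fell, 0 rose and 2 did not pass (limma). An unadjusted p under 0.05 and the blocked fit gave these counts too. Over all genes tested 6.9% fell and 6.73% rose, and 14.0% and 12.9% with the block. The 2 that did not pass were Opalin (0.15 ± 0.13) and Mal (-0.36 ± 0.20). Mal passed the filter of 38.3 only through its 37 °C arrays (35.0 ± 8.40 at 31.5 °C, 44.7 ± 9.52 at 37 °C). The summed signal of the 11 markers with a probe set of their own was 9601 to 13723 on the arrays at 31.5 °C and 18996 to 23681 at 37 °C. Ermn, a cytoskeletal gene of late oligodendrocytes, did not pass the filter and was dim at both temperatures (2.65 ± 1.35 at 31.5 °C, 19.9 ± 6.64 at 37 °C). It was at the floor on all 4 arrays in the cold, and Mobp, a structural myelin gene, on 2 of them. Tppp was lower by more than 7 of the 8 tested markers, the exception being Mobp (10.0 ± 7.19 at 31.5 °C and 304 ± 211 at 37 °C). Mobp passed the filter only through its 37 °C arrays, so it had to differ, and its size is partly set by the floor. Set against the mean log2 signal of these 8 markers on the same array, Tppp stood at -2.05 ± 0.35 at 31.5 °C and -0.82 ± 0.26 at 37 °C, a difference of -1.23 with no overlap between the 4 and 4 arrays. The mean of the 8 markers itself differed by -1.24. Without Mobp, a choice made after seeing the data, 5 of 7 markers fell, Tppp stood at -2.69 ± 0.39 and -1.02 ± 0.33 against their mean, again without overlap (a difference of -1.68), and the mean itself differed by -0.80. Tppp was chosen for its large fall in this comparison. Its place below most of these markers and below their mean follows from that choice, and nothing is read from it. The part of oligodendrocyte number or maturity in the Tppp difference was not tested.

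**Figure D2:**
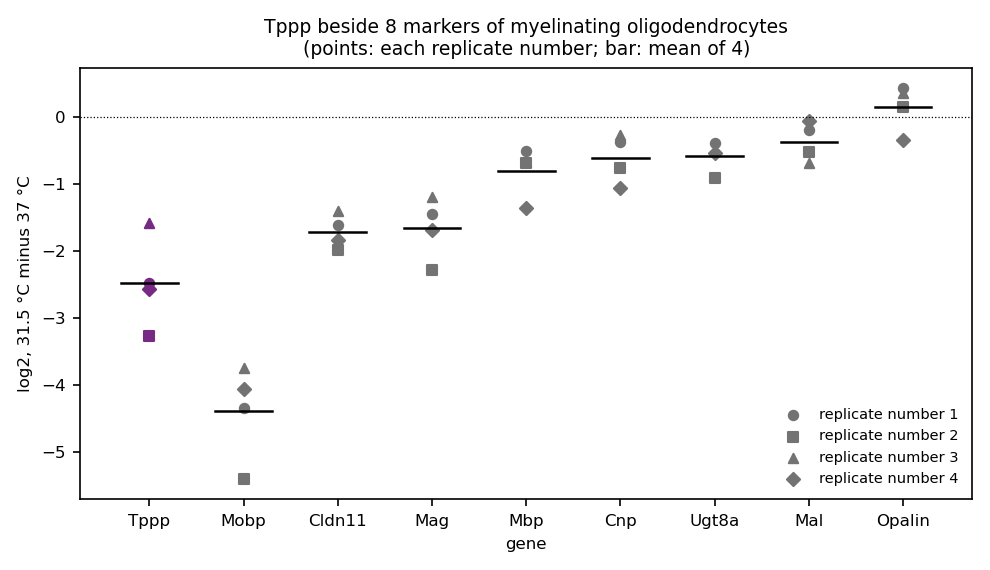
Log2 difference between 31.5 °C and 37 °C (vertical axis) for Tppp (purple) and 8 markers of myelinating oligodendrocytes (grey), with 1 point for each replicate number and a bar for the mean of 4. Tppp lies at -2.47, between Mobp at -4.39 (a size partly set by the floor) and Cldn11 at -1.71, while Opalin lies at 0.15.

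The genes whose pattern over the 8 arrays was most like that of Tppp, out of all genes tested, were Mobp (Pearson r = 0.99, Spearman rho = 0.97), Aig1 (r = 0.99, rho = 0.93), Ddc (r = 0.98, rho = 0.95), Slc35a2 (r = 0.98, rho = 1.0) and Hs3st1 (r = 0.98, rho = 0.88). These are descriptions over 8 arrays that share temperature and replicate number. With the mean of each temperature removed, the same genes kept r between 0.81 and 0.90. They were picked for the highest r on the same 8 arrays, so a high r here follows in part from that choice. The members were not picked by r, so the values of the 2 sets are not alike. Mobp was at the floor on 2 cold arrays. Among the other members, r with Tppp reached 0.78 for Tppp3 and 0.74 for Mapt over all 8 arrays, and was -0.00018 and -0.33 once the temperature means were removed.

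Tppp3, a shorter relative that also binds tubulin, gave 336, 242, 310 and 230 on 1416713_at at 31.5 °C. At 37 °C it gave 484, 428, 723 and 391. All 4 cold values lay below all 4 warm ones. The difference was smaller than for Tppp, 1.78-fold lower at 31.5 °C (-0.83 ± 0.21), and was -0.53, -0.82, -1.22 and -0.77 by replicate number. Number 3, where Tppp fell least, was where Tppp3 fell most. Tppp3 also marks ciliated and some meningeal cells, and these lists were read beside it: of 4 ependymal and ciliated markers tested 0 passed in limma (by an unadjusted p under 0.05, 1 was lower; in the blocked fit also 1), and their summed signal was 718 to 1047 at 31.5 °C and 764 to 1103 at 37 °C. Of 7 fibroblast and meningeal markers 0 passed as well (by an unadjusted p, also 0; in the blocked fit, 2 lower), at sums of 2370 to 5880 and 2571 to 4886. The ranges of both sums overlapped between temperatures, each sum was lower in the cold in 3 of 4 numbers, and their part in the Tppp3 difference was not tested. The third family gene, Tppp2, was not analysed here.

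Tuba4a, an alpha tubulin isotype, was the member with the largest difference upward. Its brightest probe set, 1417373_a_at, gave 1080.4, 783, 887 and 646 at 31.5 °C. At 37 °C it gave 603, 368, 458 and 363. The lowest cold array was above the highest warm one, and replicate 1 was the brightest and replicate 4 the dimmest at both temperatures. The level was 1.90-fold higher at 31.5 °C (0.93 ± 0.20), with 0.84, 1.09, 0.96 and 0.83 by replicate number. A further probe set, 1417374_at, gave 405, 273, 313 and 272 against 206, 193, 250.3 and 217, again without overlap. Its difference was smaller, 0.53 ± 0.15. The last one, 1417375_at, did not pass the filter: 1 of its 4 cold and 3 of its 4 warm signals were at the floor, so it gave no usable size.

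The other alpha tubulin, Tuba1a, a main isotype of the developing nervous system, showed no comparable difference. On 1418884_x_at it gave 11100.2, 12129, 12538 and 12349 at 31.5 °C, and 10610.4, 11382, 11858 and 13848 at 37 °C. The cold values lay inside the range of the warm ones, and the log2 difference was 0.02 ± 0.10, a sign that flips when single arrays are left out (-0.036 to 0.092). The ending _x_at marks a probe set whose probes can also bind related transcripts, which matters for a family as alike as the alpha tubulins. A dim probe set that carries both Tuba1a and the predicted gene Gm6682 (1433584_at) was below the filter, at 24.8 ± 7.13 and 28.6 ± 7.31.

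Of the beta tubulin members, Tubb5, Tubb2a and Tubb2b were close to even between temperatures. Tubb5, the widely expressed isotype of dividing cells, gave 7569, 8499, 7984 and 7886 on 1416256_a_at at 31.5 °C, and 7018, 7309, 7449.9 and 8062 at 37 °C. The values overlapped, at 0.10 ± 0.08, and the dimmer 1455719_at went the other way by a similar small amount (-0.08 ± 0.10). When medians instead of trimmed means were made equal, these probe sets were at 0.19 and 0.0082, both above 0.

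Tubb2a and Tubb2b, a pair of closely similar isotypes of the nervous system, were likewise near 0. Tubb2a gave 3941, 3644, 3873 and 3405 at 31.5 °C on 1427347_s_at, and 4196, 3496, 3293 and 3003 at 37 °C (0.10 ± 0.12). The ending _s_at marks a probe set shared between similar transcripts. The second Tubb2a probe set, 1427838_at, was much dimmer, at 81.1 ± 25.04 and 93.7 ± 29.6 (-0.21 ± 0.25). Tubb2b gave 3822, 3721, 4202 and 4907 at 31.5 °C on 1452679_at, and 4031, 4551, 4099 and 5181 at 37 °C (-0.10 ± 0.12). The probe set 1449682_s_at, which carries Tubb2b and the pseudogene Tubb2a-ps2, was at 5545 ± 474 and 5768 ± 996 (-0.05 ± 0.13, from -0.10 to 0.069 over the fits without 1 array). These groups overlapped on each of the 4 probe sets.

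Tubb6, an isotype found in many tissues, had the largest difference among the 4 beta tubulin members. On 1416431_at it gave 572, 517, 632 and 719 at 31.5 °C, and 410.3, 362, 584 and 530.2 at 37 °C. Replicates 3 and 4 at 37 °C reached into the range of the cold arrays, so the groups overlapped. Matched by number, all 4 differences were positive, 0.48, 0.51, 0.11 and 0.44, with a mean of 0.39 ± 0.17. A dim second probe set, 1446353_at, did not show this: it gave 43.3 ± 4.18 and 48.1 ± 2.22 (-0.15 ± 0.10). The probe sets of Tubb6 thus differ in sign.

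**Figure D3:**
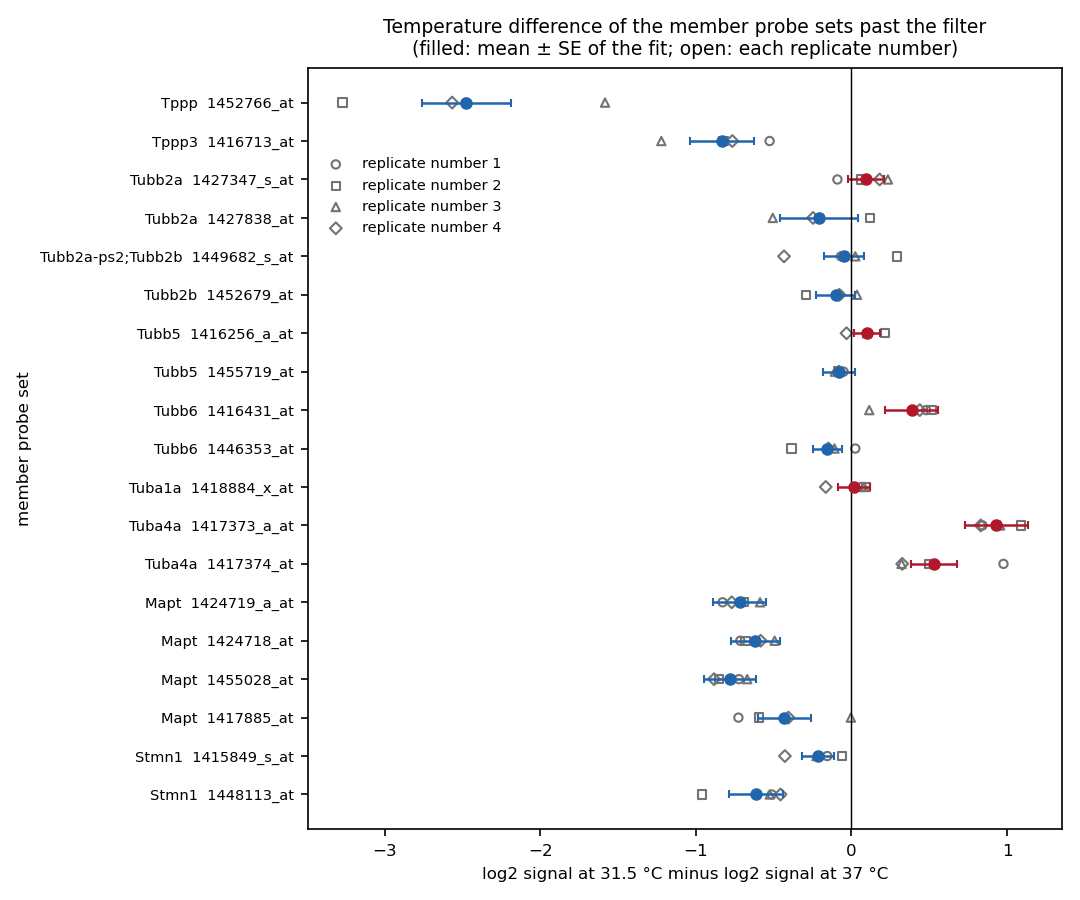
Log2 signal at 31.5 °C minus that at 37 °C (horizontal axis) for the 19 member probe sets past the filter (rows), as mean ± SE of the fit (filled, blue below 0 and red above) with the 4 replicate numbers as open symbols. The 4 Mapt probe sets lie between -0.78 and -0.43, the 2 Tuba4a probe sets at 0.53 and 0.93, and the probe sets of Tuba1a, Tubb2a, Tubb2b and Tubb5 between -0.21 and 0.10.

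Mapt encodes tau, which binds along microtubules in axons and is also made in oligodendrocytes. It was measured by 4 probe sets, and each of them was lower in the cold. On the brightest, 1424719_a_at, the signal at 31.5 °C was 1194, 1271, 1011 and 1467. At 37 °C it was 2120.2, 2052, 1519 and 2500.4. The groups did not overlap, the level was 1.65-fold lower at 31.5 °C (-0.72 ± 0.17), and replicate 3 was the lowest and replicate 4 the highest at both temperatures. The differences within numbers were -0.83, -0.69, -0.59 and -0.77, a narrow range for arrays whose levels at one temperature differed by up to 1.65-fold. 1455028_at gave -0.78 ± 0.17, also without overlap. 1424718_at gave -0.62 ± 0.16, where replicate 4 in the cold (1048) just passed replicate 3 at 37 °C (1034). The dimmest, 1417885_at, gave -0.43 ± 0.17, with -0.73, -0.59, -0.0039 and -0.40 by number, because its replicate 3 at 37 °C was at 237 while the other 3 were between 368 and 392.

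Stmn1 encodes the stathmin of dividing and immature cells, which sequesters tubulin dimers. Its probe sets differed in the size of the change. On 1448113_at it gave 577, 455, 390 and 527 at 31.5 °C, and 823, 885, 561 and 722 at 37 °C. Replicate 1 in the cold was above replicate 3 at 37 °C, so the groups overlapped by that pair of arrays, although each number was lower in the cold (-0.51, -0.96, -0.52 and -0.46). The mean difference was -0.61 ± 0.17. On 1415849_s_at, close to the top of the signal range, it gave 7486 to 8625 at 31.5 °C and 8352 to 10735 at 37 °C. The difference was -0.22 ± 0.10, and each number was again lower in the cold (-0.16, -0.06, -0.22 and -0.43). The genes most like this brighter probe set over the 8 arrays were Ywhab (r = 0.98, rho = 0.93), Khdrbs2 (r = 0.98, rho = 1.0), Ninj2 (r = 0.97, rho = 0.93), Dpysl2 (r = 0.96, rho = 0.93) and Dicer1 (r = 0.96, rho = 0.95), as a description only.

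Neurons and dividing cells also make Mapt, Stmn1 and several tubulins, so their markers stand beside these values. Of 12 neuron markers 1 rose (Nefm), 1 fell (Gap43) and 10 did not pass, with 1 higher and 3 lower with the block. Their summed signal was 12125 to 15182 at 31.5 °C and 12512 to 17874 at 37 °C, ranges that overlap, and none was at the floor. This sum includes its brightest markers Tubb3, Map2, Dcx and Stmn2, which are also read below as microtubule genes. Matched by replicate number, this sum was lower in the cold in 4 of 4 numbers (13310 against 16961, 15181 against 17874, 12125 against 12512 and 14244 against 16517), and 7 of the 12 markers were lower in all 4 numbers while 1 was higher. Of 9 markers of dividing cells 0 passed in limma (by an unadjusted p under 0.05, 1 was lower; in the blocked fit, 0), at sums of 7909 to 8661 and 7990 to 9729, lower in the cold in 3 of 4 numbers. The part of either cell type in the Mapt and Stmn1 differences was not tested. Of 10 precursor markers 2 rose, Pdgfra (0.45 ± 0.12) and Lhfpl3 (0.67 ± 0.18). Gpr17 (-0.84 ± 0.10) and Matn4 (-0.87 ± 0.14) fell, and 6 did not pass. These genes are named after their values were seen. Over all genes tested 6.73% rose and 6.9% fell. The sums of the 10 markers were 16094 to 18579 at 31.5 °C and 16744 to 19996 at 37 °C. The precursor sum was lower in the cold in 4 of 4 numbers, with 4 of the markers lower and 3 higher in all numbers. Astrocyte (0 of 8; 2 lower at an unadjusted p, 4 with the block) and microglia markers (0 of 8; 1 lower at an unadjusted p, 3 with the block) gave no call in limma, with sums lower in the cold in 4 of 4 numbers for each, and 4 of 5 endothelial markers were below the filter.

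The rest of the microtubule machinery was read from 12 lists of 169 genes that are not members, of which 149 were tested, each by its brightest probe set. In total 8 rose, 12 fell and 129 did not pass, and 6.73% of all 11528 genes tested rose while 6.9% fell. The median of the 149 genes was -0.04, beside -0.0027 over all genes. With the block 18 rose and 29 fell, where 12.9% and 14.0% of all genes did. Equal array medians in place of equal trimmed means shifted all probe sets by a median of 0.09, gave 4 lower genes in these lists, and took the share of higher calls among all probe sets from 48.9% to 61.4%. All 20 calls were kept with the block.

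**Figure D4:**
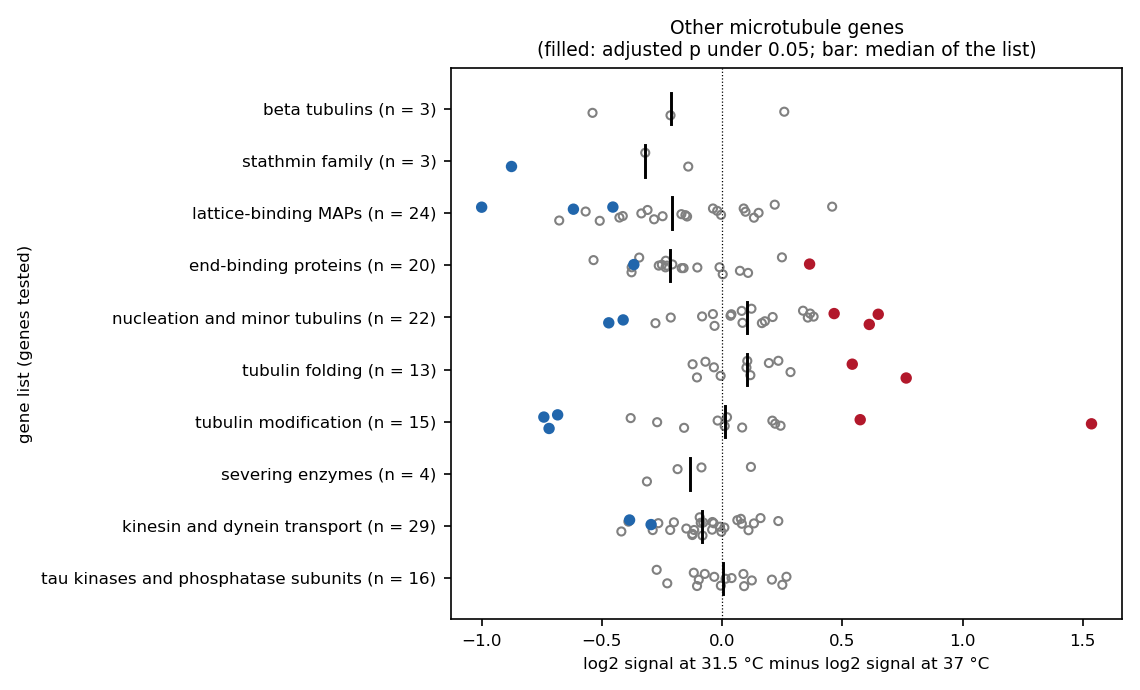
Log2 difference between 31.5 °C and 37 °C (horizontal axis) of the genes of 10 lists of other microtubule genes (rows, with the number tested), where a filled point passed an adjusted p of 0.05 in limma, blue for lower and red for higher, and the bar is the median of the list. The 2 filled points of the folding list lie at 0.54 and 0.77, and those of the lattice-binding list between -1.0 and -0.45.

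The lists of tubulin folding and of nucleation, joined here after their values were seen, held 5 of the 8 rises. Over all genes tested 6.73% rose, and nothing is read from this joint count. Of 13 tested genes of tubulin folding 2 rose, 0 fell and 11 did not pass (4 higher and 0 lower by an unadjusted p; 3 rose with the block), with a list median of 0.10. Tbce, a cofactor that helps form and take apart the tubulin dimer, rose from 277 ± 7.25 to 471 ± 24.9 (0.77 ± 0.08, adjusted p = 0.000983, up to 0.00515 over the alternatives). Its partner Tbcd rose from 570.3 ± 27.3 to 830 ± 34.9 (0.54 ± 0.08, adjusted p = 0.00426, up to 0.0262). Both were higher in each of the 4 replicate numbers. Of 22 tested genes of nucleation and the minor tubulins 3 rose, 2 fell and 17 did not pass (7 and 2 with the block), with a median of 0.10. Tubgcp2, a subunit of the gamma-tubulin ring complex, rose from 505 ± 26.7 to 791 ± 33.3 (0.65 ± 0.08, adjusted p = 0.00219, up to 0.0142). Haus2, of the augmin complex that branches microtubules, rose from 322 ± 17.9 to 491 ± 21.2 (0.61 ± 0.08, adjusted p = 0.00299, up to 0.0170). Tubd1, the delta tubulin of centrioles, fell by 0.41 (adjusted p = 0.0226, up to 0.233). The other 2 of the 5, named here because the count is small, were Mzt2 (0.47, adjusted p = 0.0418, up to 0.109) and Haus8 (-0.47, adjusted p = 0.0492, up to 0.155).

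Enzymes that modify tubulin changed in both directions, with 2 up, 3 down and 10 that did not pass among 15 tested (2 and 4 with the block; list median 0.01). Sirt2, a tubulin deacetylase abundant in oligodendrocytes, fell from 4340 ± 272 to 2712 ± 346 (-0.68 ± 0.11, adjusted p = 0.00601, up to 0.0544), while the deacetylase gene Hdac6 was at 435 ± 26.4 in the cold and 368 ± 33.1 at 37 °C (0.24 ± 0.10, adjusted p = 0.128). Agtpbp1, which trims glutamate chains from tubulin tails, fell from 347 ± 39.7 to 210.5 ± 17.9 (-0.72 ± 0.11, adjusted p = 0.00508, up to 0.0406). Ttll7, which adds such chains, fell from 143 ± 23.5 to 85.2 ± 7.78 (-0.74 ± 0.13, adjusted p = 0.0083, up to 0.0262). The 2 rises, named after their values were seen, were the glutamate-trimming gene Agbl3 (1.54, adjusted p = 0.00905, up to 0.36) and the glutamate-adding gene Ttll11 (0.57, adjusted p = 0.0138, up to 0.948). Agbl3 passed the filter only through its cold arrays (64.2 ± 11.6, against 23.2 ± 9.48 at 37 °C), and with the floor at the 50th percentile its difference was 0.72. Both rest on 1 probe set: with the mean of all the gene's probe sets they were at 0.16 and -0.014.

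Of the proteins that bind the polymer, 39 of 44 did not pass. For counts at an unadjusted p the share of all genes was not taken, so nothing is read from them. With the block 12.9% of all genes were higher and 14.0% lower. Among 24 lattice-binding genes 0 rose, 3 fell and 21 did not pass (limma; 1 was higher and 9 lower by an unadjusted p under 0.05, and the blocked fit gave these counts too), and the median was -0.21. The 3 were Eml1, of an echinoderm-like microtubule-binding family (63.2 ± 8.28 against 129 ± 32.0; -1.0 ± 0.19, adjusted p = 0.0112, up to 0.0424), its relative Eml2 (-0.45, adjusted p = 0.0417, up to 0.152) and Map7d2, which recruits kinesin to microtubules (-0.62, adjusted p = 0.0173, up to 0.0940). Dendritic Map2 was at -0.15 ± 0.09 (adjusted p = 0.299), Map4 at -0.02 ± 0.09 (adjusted p = 0.914), Dcx at -0.04 ± 0.14 (adjusted p = 0.891) and Map1b at -0.43 ± 0.34 (adjusted p = 0.456, but 0.0144 with the block). The signs of Map2, Map4 and Dcx, and that of Stmn2 in the next paragraph, flip under some alternatives. Of 20 end-binding genes 1 rose, 1 fell and 18 did not pass (2 and 5 with the block; median -0.22). Camsap2, which caps minus ends, fell by 0.37 (adjusted p = 0.0227, up to 0.59), a call that ended, at -0.086, when its probe sets were averaged. The spindle gene Tacc3 rose by 0.36 (adjusted p = 0.0163, up to 0.154).

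Relatives of the members gave few calls. Of the 3 further stathmins Stmn4, a neural stathmin, fell from 2069 ± 457 to 1120 ± 224 (-0.88 ± 0.20, adjusted p = 0.0255, up to 0.0829), Stmn3 was at -0.32 ± 0.11 (adjusted p = 0.0945, 0.0268 with the block) and Stmn2 at -0.14 ± 0.27 (adjusted p = 0.78). Of the 3 further beta tubulins tested 0 passed in limma (by an unadjusted p under 0.05, 1 was lower; in the blocked fit, 1 higher). Tubb4a, an isotype of neurons and oligodendrocytes, was at 1756 ± 152 in the cold and 2593 ± 574 at 37 °C, without overlap (-0.54 ± 0.16, adjusted p = 0.0552, from 0.0267 to 0.164 over the alternatives). The neuronal Tubb3 was at -0.21 ± 0.13 (adjusted p = 0.305) and Tubb4b at 0.26 ± 0.16 (adjusted p = 0.315, 0.0442 with the block; -0.074 at the lowest over the alternatives). The further alpha tubulins have only probe sets that carry a second gene or lie below the filter. One annotated to Tuba1b and Gm5620 (1423846_x_at) was at 0.07 ± 0.09 (adjusted p = 0.634), and one annotated to Tuba1c and Gm6682 (1448232_x_at) at 0.58 ± 0.20 (adjusted p = 0.0908, 0.0132 with the block). A further probe set with this annotation, 1416128_at, was at 0.10 ± 0.25 (adjusted p = 0.84, 0.778 with the block). Those annotated to Tuba3b and Tuba3a, 1416311_s_at and 1448296_x_at, were at -0.22 ± 0.26 and -0.20 ± 0.29 (adjusted p = 0.62 and 0.695).

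Motor genes, kinases and severing enzymes gave 2 calls in all. Of 29 genes of kinesin and dynein transport 0 rose, 2 fell and 27 did not pass (median -0.08). By an unadjusted p under 0.05, 1 was higher and 2 were lower, and with the block 1 and 5. Kifap3, a kinesin adaptor, fell by 0.39 (adjusted p = 0.04, up to 0.243), and Dynll1, a dynein light chain, from 8108 ± 544 to 6599 ± 284 (-0.30 ± 0.08, adjusted p = 0.0487, up to 0.349). Of 16 kinases and phosphatase subunits that act on tau and tubulin 0 passed in limma (1 higher and 1 lower by an unadjusted p under 0.05, and again in the blocked fit), and of 4 severing enzymes 0 passed (1 lower in each of these ways).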

How the data were processed

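The series holds 8 one-colour arrays, 4 per temperature. The authors' deposited values are linear intensity per probe set, made with MAS5 per the submitters' processing notes; the version and scaling target are not given in the sources used here, and no detection calls were used. The trimmed means of the arrays (2% left out at each end) ran from 132 to 248, so each array was scaled to their mean (factors 0.848 to 1.60), values under the 25th percentile (9.80) were raised to it, and log2 was taken. The arrays hold 45101 probe sets, from which 64 controls were removed. Among the others, 34945 carried 1 gene symbol, 932 several and 9160 none, by the platform annotation. Probe sets with a mean signal at or above the median (38.3) were tested singly with limma 3.58.1 in R 4.3.3 (lmFit, eBayes, two-sided, temperature as the only term, Benjamini-Hochberg over all 22519). A gene outside the members was read by its probe set of highest mean. Fold values are ratios of geometric means. The procedure was tested on simulated data. Plots were made in Python 3.11.15 with matplotlib 3.10.9.

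Arrays of the same number deviated together from their group means (r from 0.385 to 0.578 over probe sets, at most 0.00334 between different numbers), so the numbers pair the arrays, a hint from the data that the labels do not explain. Values with the number as a block stand beside results they change. Each SE given is from the fit without the block. With the block the SE was smaller for every member probe set tested. It was 0.25 against 0.29 for Tppp, 0.076 against 0.20 for Tuba4a (1417373_a_at) and 0.073 against 0.17 for Mapt (1424719_a_at). Counts at an unadjusted p under 0.05 stand beside only some of the lists above. For the others, higher and lower were 1 and 2 (neuron), 2 and 4 (precursor), 0 and 2 (stathmins), 2 and 7 (end-binding), 7 and 2 (nucleation) and 3 and 4 (tubulin modification). The share of all genes was not counted, and nothing is read from these counts. The members and all gene lists were chosen with earlier results of these data known. The rule for named genes took all members, 14 genes in any case where measured, and from each list up to 3 genes past the threshold, by smallest p; others are marked where named. No batch is given in the labels. No protein sequences were used.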

Additional observations from a re-analysis of the deposited data

Results flagged for a closer look

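In 3 of the 42 groups of 4 values (21 member probe sets at each temperature), 1 array stood apart from the other 3 by more than Dixon's 95% limit for 4 values; chance gives about 1 in 20 groups. On the Mapt probe set 1417885_at replicate 3 at 37 °C was at 237, while the others were between 368 and 392; the other Mapt probe sets had replicate 3 as the lowest warm array too, without passing the limit. On 1449682_s_at, which carries Tubb2b and a pseudogene, replicate 2 at 31.5 °C was at 6252 and the others between 5235 and 5364. On the dim Tuba4a probe set 1417375_at replicate 3 at 37 °C was at 10.8, while the other 3 arrays were under the floor and had been raised to it, so that this gap follows from the floor and not from their signals (6.10 to 8.97).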

How the results depend on the processing

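Over all probe sets 1469 were higher and 1538 lower; 639 were lower with scaling to a common median, 2799 higher and 3139 lower with the replicate block, and 763 to 1279 higher and 835 to 1475 lower without 1 array. Of the member probe sets, 2 higher and 6 lower became 1 and 3 with median scaling, 0 and 1 with no filter on dim probe sets, 1 and 3 with 1 probe set a gene, and 0 to 2 and 1 to 7 without 1 array. Of the other microtubule genes, 8 higher and 12 lower became 4 lower with median scaling, 18 and 29 with the replicate block, 5 higher when probe sets of a gene were averaged, and 6 to 9 and 4 to 16 without 1 array. Of the 20 calls among them, the cold arrays 1 to 4, left out in turn, kept 13, 15, 10 and 17, and the warm arrays 13, 14, 17 and 13. Ttll11 turned to -0.014 when its probe sets were averaged. The fits without 1 array have fewer samples and an unmatched partner; the cause of the other shifts was not tested. Without detection calls, how far dim probe sets stand above background is unknown.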

Other observations

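With the replicate block, 18 of the 149 genes tested in the 12 microtubule lists passed as higher and 29 as lower in limma. Over all genes tested 12.9% and 14.0% did so in that fit. Of the 18 and 29, 10 higher and 17 lower genes, 27 in all, had not passed without the block. The share of all genes gained in this way was not counted. The 27 are named here after their values were seen. Lower at 31.5 °C were the lattice-binding genes Map6 (-0.57, adjusted p = 0.00684 with the block), which makes microtubules stable in the cold, Map1a (-0.41, 0.0317) and Map9 (-0.51, 0.0263), and the end-binding genes Camsap3 (-0.54, 0.00717), Apc (-0.38, 0.0214), Mapre1 (-0.35, 0.0275) and Mapre2 (-0.38, 0.0240). So were the kinesin heavy chains Kif5a (-0.39, 0.0289) and Kif5c (-0.42, 0.0178), and Atat1, the enzyme that acetylates alpha tubulin (-0.38, 0.0185). Higher were Dclk2, a doublecortin-like kinase gene (0.46, 0.00862), and the augmin genes Haus1 (0.34, 0.0313), Haus4 (0.36, 0.0488) and Haus7 (0.37, 0.0323). The other lower genes were Map1b, Stmn3, Fez1, Mid1, Katnal1, Kif21b and Rock1, and the other higher ones Tubb4b, Mzt1, Tbcb, Tacc2, Dynlt3 and Ppp2cb. Without the block the adjusted p of the 27 lay between 0.0510 and 0.614.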
